A study of Mus musculus with 38 samples.

Results

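The second batch of mice of the series, experiment #2, was compared at the entry into torpor. It held 2 Pre mice and 5 Mid mice, Pre 5, Pre 6 and Mid 9 to Mid 13, chosen by the titles of their libraries, so that 7 of the 38 libraries entered the comparison. All were male C57BL/6J mice without any genetic change, housed in a temperature-controlled chamber set to a low ambient temperature and carrying an abdominal temperature sensor. The Pre mice were sampled on day 1 at ZT-22 with food available. The Mid mice were sampled on day 2 at ZT-22, after food had been removed at ZT-0 of that day. The labels call the Pre mice control and the Mid mice torpor, but give no age and no oxygen consumption for single mice, and fasting-induced torpor comes in bouts, so a Mid mouse can have been torpid or between bouts. Fasting for the day and torpor cannot be told apart in this comparison, since every Mid mouse had both. From each mouse, 1 or both soleus muscles gave 1 library by nAnT-iCAGE, a method that sequences the capped 5′ ends of RNA without amplification and thereby counts the transcripts that start at each promoter.

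Torpor is a state of regulated low metabolism in which a mouse lets its body temperature and oxygen consumption fall for hours. The soleus, in the calf, keeps posture and is made largely of slow, oxidative fibers. A fasted muscle is known to turn from glucose to fatty acids as fuel and to break down protein under the control of glucocorticoids and of the FOXO factors, which are active when insulin is low. Those pathways set the order of the groups described here. In bulk muscle, fewer cells of a type and less RNA per cell cannot be told apart.

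The 7 libraries held between 9359994 and 20311645 tags in 10,819 promoter clusters, and 10,816 clusters had a tag in experiment #2 and were tested. The 11 pairs of libraries within a group all differed by more than sampling noise. As a check of the tissue, none of 11 skeletal muscle markers passed the test from the Pre to Mid, and their summed level was between 60916 and 74339 TPM in the Pre (tags of a promoter scaled to an equal total in each library) and between 54411 and 62534 in the Mid.

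One feature of the libraries stood apart from the muscle. Pre 5, Pre 6 and Mid 9 to 12 were sequenced in lane 3 and Mid 13 in lane 4, together with the 3 Post mice of this batch. In the lane 3 libraries, tags of epidermal genes were present, such as the keratin genes *Krt10* and *Krt1* and *Lor*, and of *Afp* and *Sftpc*, which are known from fetal liver and from lung. These genes were chosen after their values had been seen. *Afp* and *Sftpc* were the 2 of 6 listed genes of fetal liver, lung and growth without a tag in experiment #1. *Alb* of that list reached 200 TPM in experiment #1 and 1111 TPM in Post 7 of lane 4, against 458 TPM in Mid 11. *H19* reached 686 TPM in experiment #1, and *Igf2* and *Dlk1* 2.07 and 1.6 TPM. Of 12 measured epidermal genes, 11 had no tag there, and *Sbsn* reached 3.08 TPM. A further set held the 13 clusters that had no tag in the 28 libraries of experiment #1 or in lane 4. Their absence there was thus the rule of choice and not a result. Their sum was 2.49 and 10 TPM in Pre 5 and Pre 6, and 60.7, 22.4, 500 and 40.2 TPM in Mid 9, 10, 11 and 12. *Krt10* was at 1.16 and 7.07 TPM in the Pre and at 43.0, 13.3, 312, 21.3 and 0 TPM in Mid 9 to 13. Mid 11 was thus the highest by far, and it was also the highest of the Mid for *Igf2* (89.4 TPM, against 8.61 to 11.2 in the other Mid) and for the sum of 5 red blood cell genes (5499 TPM, with 1115 TPM in the lowest Mid). None of the 13 clusters passed the test from the Pre to Mid. The part of these transcripts in the results was not tested, but the counts of called promoters are also given without Mid 11.

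Between the Pre and the Mid mice, 573 promoters rose (5.3% of those tested) and 480 fell (4.44%), 9.74% in all, at a false discovery rate (FDR) below 0.05 by the quasi-likelihood test of edgeR with Benjamini-Hochberg adjustment. The median log2 fold change was 0.80 for the former and -0.69 for the latter, and it was 0.00 over all promoters. In 51 promoters the increase was at least 4-fold and in 24 the decrease was. Every Mid library was above both Pre libraries in 571 of the 573 (1281 of all promoters, 11.8%), and below both in 478 of the 480 (2076 of all, 19.2%). Without Mid 11 the counts were 510 up and 377 down, of which 485 and 356 were among the promoters given above. The counts rested on both Pre libraries. Without Pre 5 they were 148 and 120, and without Pre 6 they were 154 and 106. Without Mid 12 they were 385 and 305, and among the 6 libraries of lane 3 alone they were 318 and 237 (263 and 180 also without Mid 11). The test also held the 3 Post libraries of this batch, for the spread only. In a fit of the 7 libraries without them the counts were 512 and 398, of which 471 and 365 were among the promoters given above. All 573 and 480 promoters kept their direction in each of these fits. This was largely fixed by the choice of promoters, since in nearly all of them the Mid lay outside the range of the Pre.

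**Figure D1:**
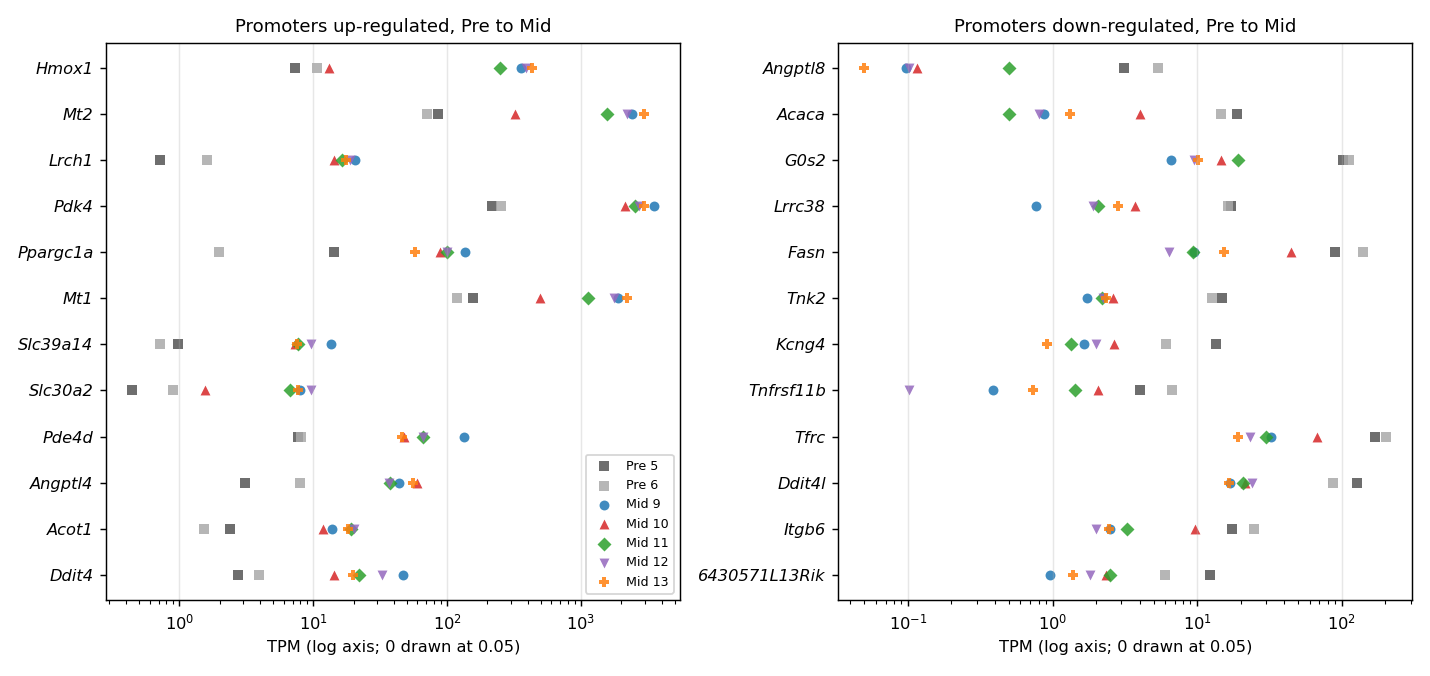
Levels of the 12 promoters with the largest increase (left) and the 12 with the largest decrease (right) from the Pre to Mid in experiment #2, in TPM on a log axis. Each point is 1 library of 1 mouse, squares for the 2 Pre and the other symbols for the 5 Mid. These promoters were taken only from called ones in which every Mid library lay outside the range of the Pre, so that separation is by choice. Mid 10 lies nearest to the Pre for *Hmox1*, where it was at 13.2 TPM and the Pre at 7.29 and 10.6 TPM.

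*Pdk4*, whose product blocks pyruvate dehydrogenase and so the use of glucose, was at 218 and 253 TPM in the Pre and at 3520, 2143, 2535, 2700 and 2942 TPM in Mid 9 to 13. The groups were far apart, with a log2 fold change of 3.62 ± 0.23 (SE, 2 Pre and 5 Mid, FDR 4.65e-05 by edgeR). *Pdp1*, one of the phosphatases that reverse this block, fell from 42.9 TPM in both Pre to between 15.7 and 24.6 TPM in the Mid (log2 fold change -1.04 ± 0.14), whereas *Pdp2* rose (1.16 ± 0.19). Besides *Pdk4* and *Pdp2*, none of the 28 measured genes of glucose use was up-regulated, and besides *Pdp1* only *Pfkfb3*, which makes an activator of glycolysis, was down-regulated (-0.87 ± 0.18). The median of this group was -0.01.

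Of 26 genes of fatty acid oxidation and uncoupling, 6 were up-regulated (4 in lane 3 alone) and none down-regulated. Over all 9077 annotated genes, with 1 promoter taken per gene, 5.08% were up-regulated and 4.43% down-regulated. The uncoupling protein gene *Ucp3* was at 6.40 and 11.2 TPM in the Pre and at 45, 45.2, 46.6, 49.3 and 43.0 TPM in Mid 9 to 13 (log2 fold change 2.44 ± 0.21, FDR 0.000187). The acyl-CoA thioesterase genes *Acot1* and *Acot2*, close copies of each other whose tags could be split by mapping, changed by 3.13 ± 0.35 and 1.82 ± 0.23. *Mlycd*, which removes malonyl-CoA, an inhibitor of fatty acid import into mitochondria, changed by 1.23 ± 0.18. The other 2 were *Ucp2* and the fatty acid transporter gene *Cd36*. The remaining 20, which include the enzymes of beta oxidation, did not pass. The median of the group was 0.16, with *Acadm* at -0.06 and *Hadha* at -0.03.

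Of the genes for the release of fatty acids from lipid droplets and lipoproteins, *G0s2*, an inhibitor of the lipase encoded by *Pnpla2*, was at 102 and 113 TPM in the Pre and at 6.56, 14.6, 19.1, 9.57 and 10.1 TPM in the Mid (log2 fold change -3.10 ± 0.25, FDR 0.000116). *Pnpla2* itself rose by 1.19 ± 0.18. *Angptl4*, an inhibitor of lipoprotein lipase known to rise in fasting, was at 3.11 and 7.96 TPM in the Pre and at 43.8, 60, 37.7, 37.0 and 55.6 TPM in the Mid (3.15 ± 0.37). *Angptl8*, known to be made after feeding, was at 3.11 and 5.37 TPM in the Pre and at 0.0965, 0.115, 0.499, 0.101 and 0 TPM in the Mid (-4.65 ± 0.71). In all, 6 of the 15 measured genes of this group rose, among them the droplet coat genes *Plin2*, *Plin4* and *Plin5*, and 2 fell.

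Of 19 genes of fatty acid synthesis, 8 were down-regulated (6 in lane 3 alone) and 1, *Lpin1*, was up-regulated, with a median of -0.59. *Fasn*, the fatty acid synthase gene, was at 90.5 and 140 TPM in the Pre and at 9.45, 45, 9.34, 6.44 and 15.4 TPM in the Mid (log2 fold change -2.66 ± 0.60, FDR 0.0206). *Mid1ip1*, an activator of acetyl-CoA carboxylase, was at 118 and 143 TPM and then between 34.8 and 47.4 TPM (-1.66 ± 0.11, FDR 4.65e-05), and the ATP citrate lyase gene *Acly* changed by -1.75 ± 0.30. *Fasn* lost its call in lane 3 alone (FDR 0.0609), without Pre 5 (0.0765) and without Pre 6 (0.144), whereas *Mid1ip1* kept it under every alternative. Of 13 genes of cholesterol synthesis and uptake, 6 were down-regulated (4 in lane 3 alone) and none up-regulated, with a median of -0.57. *Insig1*, which encodes a brake on sterol synthesis, was at 20.5 and 21 TPM in the Pre and between 9.74 and 13.5 TPM in the Mid (-0.82 ± 0.17, FDR 0.0136), and lost the call without Pre 5 (0.0993) and without Pre 6 (0.0911). Fat cells also express lipid genes at high levels. None of 9 adipocyte markers passed the test, and their summed level was 1829 and 2148 TPM in the Pre and 2131, 3055, 1695, 1901 and 2763 TPM in Mid 9 to 13.

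Of 20 glucocorticoid receptor targets, 14 rose and none fell by their main promoter, the one with the most tags, with a median of 1.06. The same 14 and 0 were counted without Mid 11 and in lane 3 alone. *Cebpd*, a transcription factor, was at 33.2 and 33.5 TPM in the Pre and at 200, 114, 151, 176 and 137 TPM in the Mid (log2 fold change 2.28 ± 0.23, FDR 0.0004). *Tsc22d3*, known as the glucocorticoid-induced leucine zipper, changed by 1.48 ± 0.15, *Klf15* by 1.29 ± 0.18 and the cell cycle inhibitor *Cdkn1a* by 2.31 ± 0.26. The gene of the receptor itself, *Nr3c1*, did not pass at its main promoter (-0.25 ± 0.11), and another of its promoters fell from 25.6 and 28.4 TPM to between 11.2 and 18.2 TPM (-0.88 ± 0.14, FDR 0.00477). *Pdk4*, *Mt2*, *Ddit4* and *Per1* are counted here as well as in other groups.

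Of 17 FOXO factors and ubiquitin ligases of muscle atrophy, 8 rose (7 in lane 3 alone) and none fell (median 0.63). *Trim63*, which encodes the ligase MuRF1 that marks myosin for degradation, was at 87.3 and 102 TPM in the Pre and at 605, 436, 484, 654 and 458 TPM in the Mid (log2 fold change 2.54 ± 0.20, FDR 0.00011). *Fbxo32*, which encodes atrogin-1, was at 120 and 170 TPM and then at 287, 314, 403, 454 and 446 TPM (1.46 ± 0.22). *Foxo1* rose from 20.5 and 18.7 TPM to between 29.7 and 39.3 TPM (0.88 ± 0.13). Autophagy, which delivers cell parts to lysosomes, had 7 of 29 genes up (5 in lane 3 alone) and none down. It was led by *Gabarapl1* (1.96 ± 0.21) and *Ulk1* (1.32 ± 0.22). Of 40 proteasome subunits 4 rose and 1 fell, none of them by more than 0.83, and in lane 3 alone 2 rose. The alpha-arrestins *Txnip*, *Arrdc2* and *Arrdc3*, of which *Txnip* limits glucose uptake, were 3 of 4 measured members that rose (1.65 ± 0.19, 2.39 ± 0.34 and 0.68 ± 0.09).

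**Figure D2:**
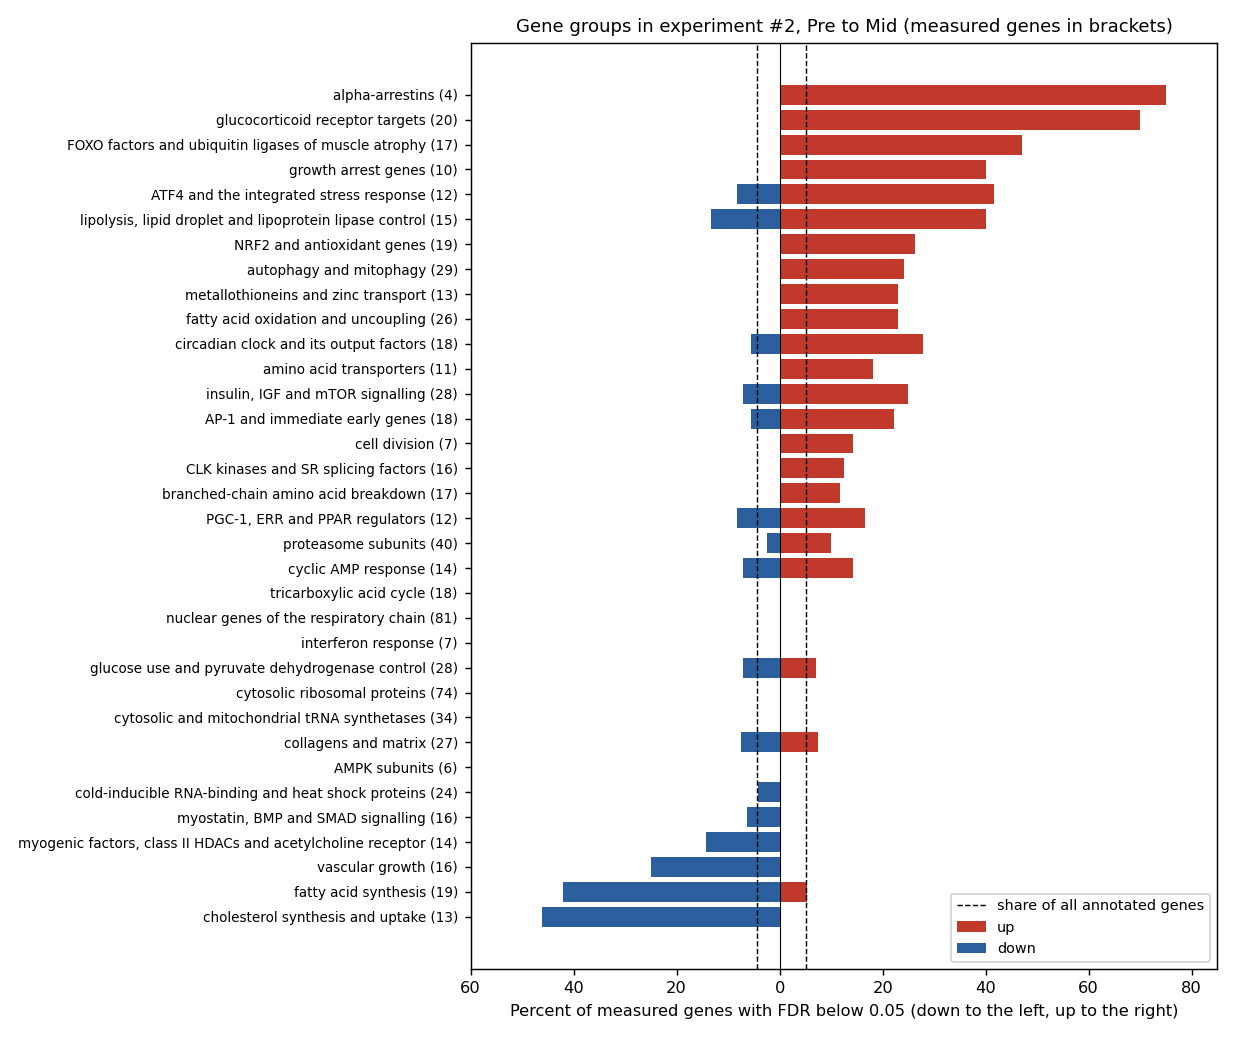
Share of the measured genes of each group that passed an FDR of 0.05 from the Pre to Mid in experiment #2, up to the right and down to the left, with the number of measured genes in brackets. Dashed lines show the share among all annotated genes, 5.08% up and 4.43% down. Glucocorticoid targets and FOXO and ubiquitin ligase genes extend to the right, fatty acid and cholesterol synthesis to the left, and ribosomal, respiratory chain and tricarboxylic acid cycle genes have no bar.

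Sequences before the start of 6 up-regulated promoters are shown for the motifs they hold. They are from RefSeq, of the mouse build GRCm38.p6, and were taken for promoters whose RefSeq start lay within 50 bp of the highest peak of the cluster, 4748 in all. The palindromic glucocorticoid response element was searched on both strands in the 250 bases before the start. It was in 14 of the 4748 sequences (0.295%), in 4 of 249 before up-regulated promoters (1.61%) and in 0 of 188 before down-regulated ones. The 4 were *Trim63*, *Txnip*, the stress kinase gene *Map3k6* and *Tinagl1*, which encodes a matrix protein. In *Trim63* (chr4:134314870-134315119, plus strand) the capitals mark the glucocorticoid response element at 208 bases before the start, a FOXO site (GTAAACA on the minus strand) and a TATA box (TATAAA), and in *Txnip* (chr3:96557757-96557956, plus strand) they mark the element and a FOXO site. In *Map3k6* (chr4:133240618-133240817, plus strand) and *Tinagl1* (chr4:130174803-130174962, minus strand) only the element is in capitals.
Trim63: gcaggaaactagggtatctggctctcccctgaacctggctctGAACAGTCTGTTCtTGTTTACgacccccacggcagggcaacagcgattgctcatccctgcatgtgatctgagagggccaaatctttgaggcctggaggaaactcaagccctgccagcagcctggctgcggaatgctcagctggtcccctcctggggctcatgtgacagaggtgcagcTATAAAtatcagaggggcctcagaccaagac
Txnip: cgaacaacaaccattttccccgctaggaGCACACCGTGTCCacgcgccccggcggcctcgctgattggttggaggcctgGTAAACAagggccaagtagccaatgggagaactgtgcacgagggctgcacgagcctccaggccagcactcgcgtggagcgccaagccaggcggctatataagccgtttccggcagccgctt
Map3k6: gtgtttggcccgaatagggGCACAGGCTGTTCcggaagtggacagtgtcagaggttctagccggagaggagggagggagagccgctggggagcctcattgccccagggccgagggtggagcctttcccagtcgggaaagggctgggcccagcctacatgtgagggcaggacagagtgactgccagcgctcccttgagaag
Tinagl1: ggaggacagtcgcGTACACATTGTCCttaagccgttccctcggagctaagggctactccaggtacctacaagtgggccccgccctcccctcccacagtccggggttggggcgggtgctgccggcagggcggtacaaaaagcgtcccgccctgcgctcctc

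In *Txnip*, tags were at 118 and 178 TPM in the Pre and at 421, 450, 430, 389 and 529 TPM in the Mid. *Tinagl1* changed by 0.95 and *Map3k6* by 1.75, both past an FDR of 0.05. The FOXO letters were in 4.42% of the 249 sequences before up-regulated promoters, in 2.13% of the 188 before down-regulated ones and in 2.04% of all. The letters of the E-box (CACGTG) were in 13.3%, 5.32% and 9.14%, and those of the antioxidant response element core (TGACNNNGC) in 17.3%, 13.3% and 12.1%. The metal response element core (TGCNCNC) is so short that 53.7% of all sequences held it. The letters of the D-box (TTATGNAA) were in 2.81% before up-regulated promoters and in 2% of all, those of the AP-1 site (TGANTCA) in 4.82% and 4%, of the TATA box in 8.03% and 7.54%, of the CCAAT box (CCAAT) in 39% and 38.2%, and of the whole cyclic AMP response element (TGACGTCA) in 2.41% and 3.5%. The ERR site (TCAAGGTCA) was in 9 of all sequences and in none before a called promoter. A match is a description of the letters, and no binding was measured.

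The promoters of *Ppargc1a*, a coactivator of mitochondrial genes, changed unequally. The promoter farther upstream, 13853 bp from the other, was at 14.4 and 1.97 TPM in the Pre and at 137, 88.2, 100, 100 and 57.4 TPM in the Mid (log2 fold change 3.6 ± 0.58, FDR 0.00471). The downstream promoter was at 22.3 and 25.3 TPM and then at 18.1, 35.3, 21.7, 16.2 and 21.7 TPM (-0.01 ± 0.25, FDR 0.982). In the test of promoter use by edgeR, the downstream promoter differed from the gene as a whole (FDR 0.0164) and the upstream one did not pass (FDR 0.0759). The 2 Pre mice differed widely at the upstream promoter, but no Mid mouse was below 57.4 TPM. Its sequence is shown because the core of the cyclic AMP response element (TGACG, here on the minus strand, also part of the whole element) stands at 49 bases before the start (chr5:51567726-51567875, minus strand, in capitals). That core was in 33.7% of the sequences before up-regulated promoters and in 30.9% of all.
Ppargc1a: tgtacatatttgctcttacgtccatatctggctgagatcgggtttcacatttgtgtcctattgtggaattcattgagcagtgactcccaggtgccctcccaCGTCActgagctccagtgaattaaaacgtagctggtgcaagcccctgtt

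Among 459 genes with more than 1 tested promoter, 32 had a promoter whose change differed from that of the gene as a whole. The threshold was an FDR below 0.05 by diffSpliceDGE of edgeR (38 of 997 promoters, 3.81%). This test was added after the data had been seen. Without Mid 11, 24 genes passed, of which 23 were among the 32. The lowest FDRs were those of *Lrch1*, *Mtus1* and *Tnrc6b* (each 1.47e-05). At *Lrch1*, a gene of a protein with leucine-rich repeats, the downstream promoter was at 0.712 and 1.61 TPM in the Pre and at 20.4, 14.3, 16.3, 18.8 and 17.7 TPM in the Mid, whereas the upstream one changed by 0.25 ± 0.14 and did not pass. At *Pde4d*, which encodes a phosphodiesterase that breaks down cyclic AMP, the last of 4 promoters was at 7.65 and 8.14 TPM and then at 133, 47.2, 65.9, 65.5 and 45.6 TPM (3.23 ± 0.47), while the first was at 0.09 ± 0.14. At *Retreg1*, a receptor for autophagy of the endoplasmic reticulum, the downstream promoter changed by 2.25 ± 0.26 and the upstream one by 0.29 ± 0.21. Only the upstream promoter of *Retreg1* passed the test of promoter use (FDR 0.000236). At *St3gal5*, which encodes the enzyme that makes the ganglioside GM3, the downstream promoter was at 37.8 and 43.2 TPM and then at 221, 74.9, 219, 211 and 220 TPM, and Mid 10 was the lowest of these. *Acaca*, the acetyl-CoA carboxylase gene, changed downwards. Its first promoter was at 18.9 and 14.6 TPM and then at 0.868, 4.04, 0.499, 0.805 and 1.33 TPM (-3.32 ± 0.59), while the other 2, which include its main one, did not pass (-0.38 and -0.54). *Slc39a14*, a zinc and iron transporter gene, rose at its downstream promoter (3.47 ± 0.50) and was at 0.25 ± 0.17 at the other. In 4 genes, *Auts2*, *Casz1*, *Tnrc6b* and *Tns1*, 1 promoter was up-regulated and another down-regulated. *Tns1* was not among the 32 genes of the promoter use test. Its falling promoter lost the call in lane 3 alone (FDR 0.116 by edgeR) and in a fit of the 7 libraries (0.0668). The rising promoters of *Auts2*, *Tnrc6b* and *Tns1* lost theirs in lane 3 without Mid 11 (0.0595, 0.0582 and 0.0526). The calls of both *Casz1* promoters and of the rising ones of *Tnrc6b* and *Tns1* rested on both Pre libraries. At *Tnrc6b*, a gene of microRNA silencing, the rising and the falling promoter changed by 0.70 ± 0.15 and -1.84 ± 0.23.

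**Figure D3:**
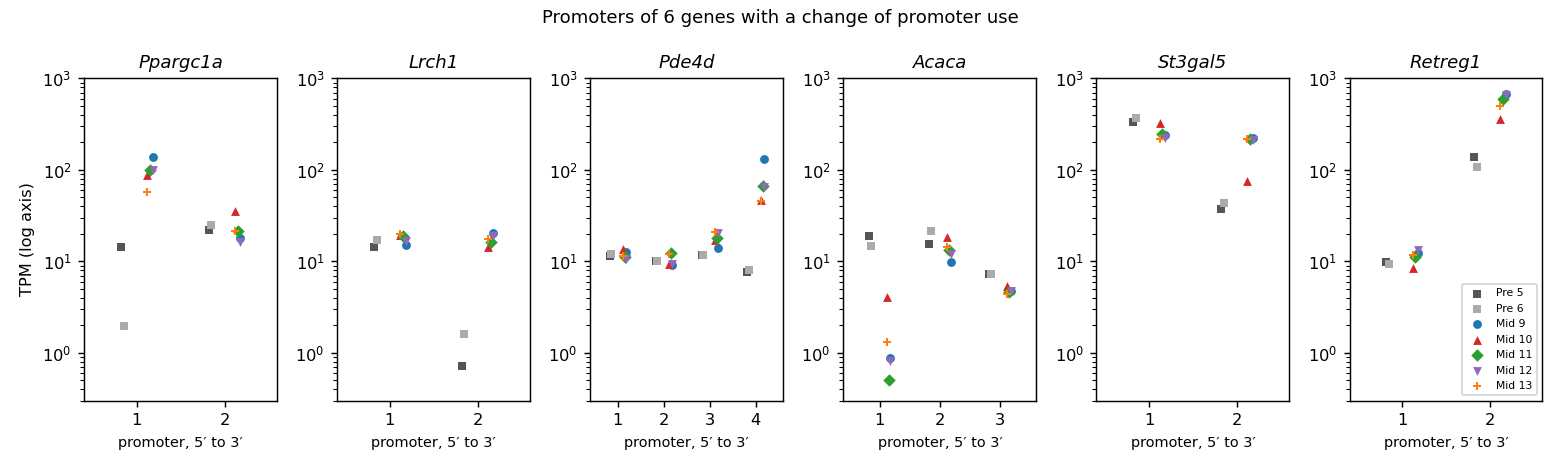
Levels of each tested promoter of *Ppargc1a*, *Lrch1*, *Pde4d*, *Acaca*, *St3gal5* and *Retreg1*, numbered from 5′ to 3′ of the gene, in TPM on a log axis. Each point is 1 library, Pre squares left and Mid symbols right. In each gene, at least 1 promoter has the 5 Mid apart from the 2 Pre while another changed less. In *Pde4d*, *Acaca* and *St3gal5*, a further promoter has them apart as well, by a smaller change.

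Genes of heme breakdown and metal binding were among the 12 with the largest increase, and they differed widely between the mice of the Mid. *Hmox1*, which encodes the heme-degrading enzyme heme oxygenase 1, was at 7.29 and 10.6 TPM in the Pre and at 355, 13.2, 248, 391 and 433 TPM in Mid 9 to 13. Mid 10 was thus close to the Pre and the other 4 Mid far above. The log2 fold change was 5.09 ± 1.15 (FDR 0.0207), and without Pre 5 or Pre 6 the call was lost (FDR 0.158 and 0.138), as it was in lane 3 alone (0.0682). The metallothionein genes, which bind zinc and cadmium, were also lowest in Mid 10 among the Mid. *Mt2* was at 85.3 and 70.2 TPM and then at 2382, 322, 1564, 2201 and 2952 TPM (4.68 ± 0.81, FDR 0.00628), and *Mt1* changed by 3.51 ± 0.57. *Slc30a2*, a zinc exporter, changed by 3.38 ± 0.76, with Mid 10 at 1.56 TPM and the other Mid between 6.70 and 9.67. *Slc30a2* lost the call in lane 3 alone (FDR 0.0606). The calls of *Mt2*, *Mt1* and *Slc30a2* also rested on both Pre libraries. The other 10 measured metallothionein and zinc transport genes did not pass by their main promoter. Of 19 genes under NRF2 and of antioxidant defense, 5 rose and none fell, namely *Hmox1*, *Osgin1*, *Gclm*, *Gclc* and *Cat*. In lane 3 alone 1 member of the list rose.

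Of 28 genes of insulin, IGF and mTOR signalling, 7 rose and 2 fell (median 0.01), and in lane 3 alone 4 rose. *Sesn1*, an inhibitor of mTOR complex 1, was at 13.6 and 11.4 TPM in the Pre and at 62.8, 45.6, 52.1, 49.8 and 43.0 TPM in the Mid (log2 fold change 2.07 ± 0.17, FDR 0.00016). *Ddit4*, another such inhibitor, was at 2.76 and 3.94 TPM and then at 47.0, 14.4, 22, 32.8 and 19.9 TPM (3.08 ± 0.53). The call of *Ddit4* rested on both Pre libraries. Its relative *Ddit4l* went the other way, from 127 and 87.5 TPM to between 16.6 and 24.1 TPM (-2.38 ± 0.17, FDR 5.26e-05). *Mtor* was at 34.2 and 33.5 TPM and then at 48.2, 38.3, 49.2, 50.2 and 44.5 TPM (0.50 ± 0.12, FDR 0.0273), and lost the call without either Pre, without Mid 9, Mid 12 or Mid 13, and in lane 3 alone. *Igf1* was at 8.89 and 16.7 TPM and then at 2.70, 10.5, 6.13, 4.53 and 4.56 TPM, did not pass (-1.10 ± 0.38, FDR 0.101), and its groups overlapped. None of the 6 measured AMPK subunit genes passed, with log2 fold changes between -0.62 and 0.15. Growth arrest genes were up-regulated in 4 of 10 measured (*Cdkn1a*, *Gadd45b*, *Btg2* and *Gadd45g*), and in 2 of the list in lane 3 alone.

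Transcription factors and clock genes changed in part. *Ppara*, the receptor that senses fatty acids, was at 24.2 and 17.9 TPM and then at 38.4, 41.0, 40.0, 41.0 and 38.4 TPM (log2 fold change 0.97 ± 0.15, FDR 0.00415), and *Ppargc1b* fell by 0.69 on the log2 scale. *Per1*, a clock repressor gene, rose at both promoters, which are 3679 bp apart. The downstream one was at 2.31 and 1.25 TPM in the Pre and at 10.8, 6.06, 8.27, 10.2 and 7.82 TPM in the Mid (2.32 ± 0.33, FDR 0.00272), and the upstream one changed by 1.38 ± 0.24. The sequence before the downstream promoter (chr11:69098699-69098948, plus strand) is shown with the E-box and the D-box in capitals, of which the first was in 9.14% of all sequences and the second in 2%.
Per1: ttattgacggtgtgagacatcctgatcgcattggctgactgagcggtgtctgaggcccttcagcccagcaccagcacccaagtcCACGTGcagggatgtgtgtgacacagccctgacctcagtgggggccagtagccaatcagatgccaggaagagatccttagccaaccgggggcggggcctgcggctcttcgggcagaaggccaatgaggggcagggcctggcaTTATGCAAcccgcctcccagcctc
Of 18 clock genes and their output factors, 5 rose, among them *Arntl*, *Per1*, *Cry2* and *Rora*, and *Bhlhe40* fell (-1.33 ± 0.18). The Pre and Mid mice were sampled on different days, so a shift of the daily cycle was not separated from the fast. *Arntl*, the gene of the clock activator BMAL1, at 34.2 and 36.6 TPM and then at 69.4, 47.7, 46.1, 53.0 and 50.3 TPM had a log2 fold change of 0.65 ± 0.17 (FDR 0.0409), and lost the call without either Pre, in lane 3 alone (FDR 0.0936) and in a fit of the 7 libraries (0.0601).

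The AP-1 and immediate early genes had 4 of 18 up (*Myc*, *Klf6*, *Zfp36* and *Btg2*) and *Ier2* down, but the stress factor gene *Atf3* did not pass at either of its promoters. The one with more tags was at 28.4 and 12.2 TPM in the Pre and at 64.9, 25.9, 27.5, 42.7 and 34.0 TPM in the Mid (log2 fold change 0.99 ± 0.43, FDR 0.185), and the groups overlapped. The other was at 0.800 and 1.16 TPM and then at 33.9, 1.67, 3.21, 2.62 and 0.230 TPM (3.12 ± 1.65, FDR 0.275), so that Mid 9 alone was high. Genes of the ATF4 pathway, which answers amino acid lack and unfolded protein, rose in 5 of 12 measured, with *Chac1* at 2.24 ± 0.19 and *Ppp1r15a* at 1.59 ± 0.26, while *Ddit3* fell by 0.86 on the log2 scale. In lane 3 alone, 3 of the ATF4 pathway and 2 of the immediate early genes rose.

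Among 74 cytosolic ribosomal protein genes none passed, among 81 nuclear genes of the respiratory chain none, among 18 of the tricarboxylic acid cycle none and among 34 tRNA synthetase genes none. In lane 3 alone 2 ribosomal protein genes passed. Their medians were 0.07, -0.04, 0.08 and 0.07. Of 24 cold-inducible and heat shock genes, *Hspb3* alone passed (-0.78 ± 0.13), and *Rbm3* and *Cirbp*, known to be induced by cold, were at 0.08 and 0.09. Of 14 myogenic, class II deacetylase and acetylcholine receptor genes, *Myod1* (-1.33 ± 0.24) and *Hdac9* (-1.70 ± 0.29) fell. Of 11 slow muscle markers, the calcium handling genes *Casq2* (-0.74 ± 0.11) and *Sln* (-0.67 ± 0.18) fell, while the slow myosin gene *Myh7* was at -0.07. *Sln* lost the call without Mid 9, Mid 10, Mid 11 or Mid 12 and without either Pre. Of 14 fast muscle markers, *Casq1*, the fast counterpart of *Casq2*, fell (-0.50 ± 0.11) and *Mylk2* rose (0.78 ± 0.20), and in lane 3 alone none of the 14 passed. Of 16 vascular growth genes, 4 fell and none rose. They were the endothelial receptors *Kdr* (-0.78 ± 0.16), *Nrp1* and *Aplnr* and the ligand *Angpt1*, and 2 of the list passed without Mid 11, as in lane 3 alone. Of 10 endothelial markers, 1 passed in each direction. The tendon list, in which *Scx* fell (-0.96 ± 0.22), had a summed level of 569 to 845 TPM in the Pre and 374 to 791 TPM in the Mid. Of 27 measured matrix genes, *Ccn2* (1.68 ± 0.15) and *Lox* (1.43 ± 0.13) rose, and *Col15a1* and *P4ha1* fell. The other 23 did not pass, and the median was -0.08. Over all annotated genes 5.08% rose and 4.43% fell. *Col15a1*, *P4ha1* and *Scx* lost the call in lane 3 alone (FDR 0.0593, 0.0619 and 0.0673) and without either Pre.

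Some of the largest decreases were in genes outside these groups. *Tfrc*, the transferrin receptor gene for iron uptake, was at 170 and 204 TPM in the Pre and at 32.3, 67.7, 30.2, 23.4 and 19.2 TPM in the Mid (log2 fold change -2.39 ± 0.35, FDR 0.0029). *Tnk2*, a nonreceptor tyrosine kinase gene, was at 14.8 and 12.7 TPM and then at 1.74, 2.6, 2.21, 2.22 and 2.35 TPM (-2.55 ± 0.16, FDR 4.65e-05). *Lrrc38*, a subunit of potassium channels, was at 17.3 and 16.5 TPM and then at 0.772, 3.75, 2.07, 1.91 and 2.85 TPM (-2.79 ± 0.34). Mid 10 was the highest Mid in *Tfrc*, *Tnk2* and *Lrrc38*. The remaining ones of the 12 largest decreases, *Kcng4*, *Tnfrsf11b*, *Itgb6* and *6430571L13Rik*, fell by 2.29 to 2.48 on the log2 scale.

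The mice of experiment #1, which had 4 Pre and 8 Mid libraries of their own, gave the same promoters an independent measurement. Of the 573 up-regulated promoters, 503 (87.8%) were also called up in experiment #1, where 15.4% of all promoters were, and of the 480 down-regulated promoters 381 (79.4%) were called down, where 14.8% were. Of the 70 and 99 that were not called, 64 and 92 had the same sign. *Pdk4* was at 3.62 in experiment #2 and 3.42 in experiment #1, *Trim63* at 2.54 and 2.42, *Hmox1* at 5.09 and 4.59 and *G0s2* at -3.10 and -2.72. A test of the difference between the experiments, by the interaction term in edgeR over the 19 Pre and Mid libraries of both, passed an FDR of 0.05 for 0 of 10,818 promoters and had an unadjusted p below 0.05 for 515 (4.76%). DESeq2 called 7 and the likelihood ratio test 2, and without Mid 13 1 promoter passed. The smallest FDR was 0.319, and the promoters with the smallest p included those of *Carhsp1* and of the processed pseudogenes *Gm5121*, *Rps12-ps9* and *Gm6983*. The upstream *Ppargc1a* promoter was at 3.6 and 4.78 (interaction p 0.299).

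**Figure D4:**
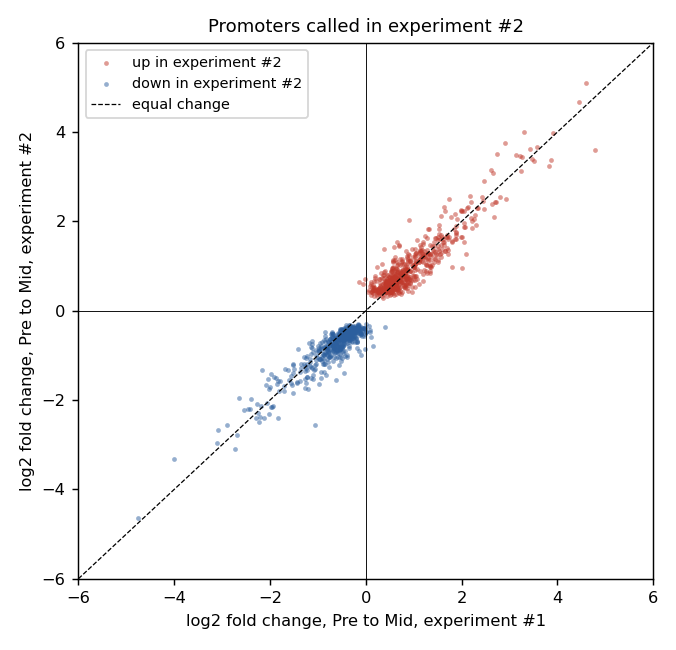
Log2 fold change (Mid against Pre) of the promoters called in experiment #2, in experiment #1 (horizontal axis) and experiment #2 (vertical axis). Each point is 1 promoter, red for up and blue for down, and the dashed line marks an equal change. Of the 1050 with a value in both, 704 had the larger absolute change in experiment #2, where they had been chosen.

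The 5 Mid mice did not change to the same degree. This was measured on promoters chosen in experiment #1 alone, 239 with a log2 fold change of at least 1 and 127 of at most -1. Over the former, the median difference from the mean of the 2 Pre was 1.61, 0.97, 1.26, 1.45 and 1.41 in Mid 9 to 13. Over the latter it was -1.60, -0.96, -1.47, -1.64 and -1.46. Mid 10 was the nearest to the Pre in both, although 97.9% of the 239 promoters were above the Pre in it. Between the 2 Pre mice the medians were within 0.08 of 0. Among the 573 up-regulated promoters of experiment #2, Mid 10 was the least changed Mid in 339 (59.2%) and the most changed in 30 (5.24%). Without Mid 10 the counts were 747 up and 573 down. Oxygen consumption was not analysed here, so that its part in this order was not tested.

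**Figure D5:**
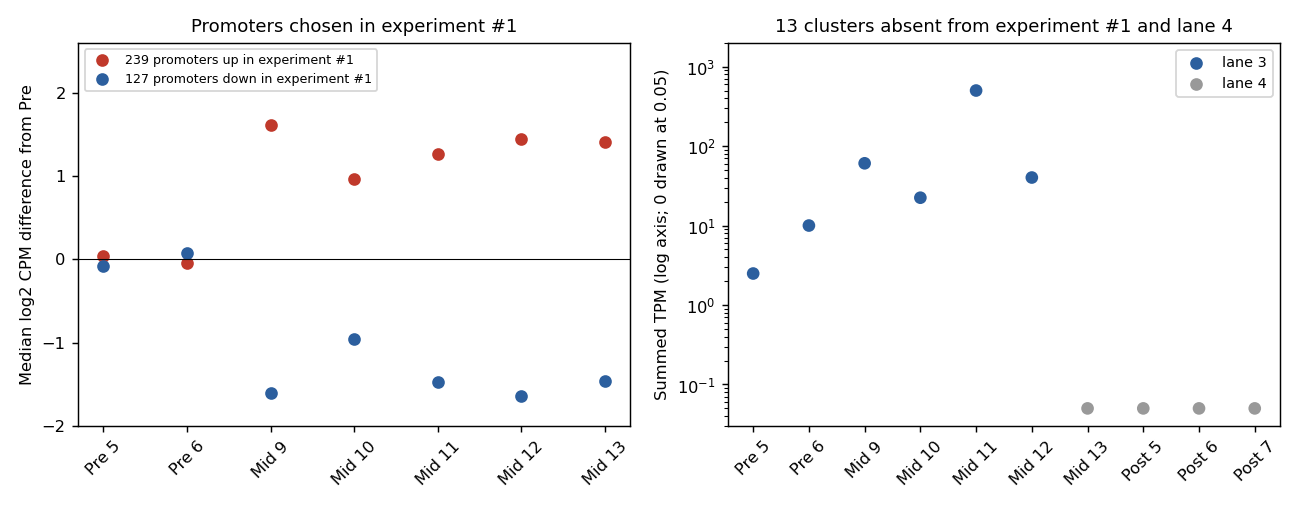
Left, median log2 difference of each library from the Pre over promoters chosen in experiment #1 as up (red) or down (blue), with each Pre set against the other Pre. Right, summed TPM of the 13 clusters chosen for having no tag in experiment #1 and lane 4, on a log axis with 0 drawn at 0.05. Mid 10 has the smallest difference at left, 0.97 and -0.96, and Mid 11 the highest sum at right, 500 TPM.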

How the data were processed

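Per the labels, each library was made from the soleus muscle of 1 mouse, so the p-values measure the spread between mice. The authors trimmed the nAnT-iCAGE reads, used BWA and HISAT2 for mapping to the mouse build mm10, clustered the 5′ ends into promoters, and deposited raw tag counts and TPM values, the latter relative to all tags. All columns of samples could be mapped. A cluster was given the gene with an annotated 5′ end within 500 bp of its peak. Counts were tested with edgeR 4.0.16 (TMM factors, quasi-likelihood test, Benjamini-Hochberg adjustment, FDR below 0.05) over the 10 libraries of experiment #2, its 3 Post libraries included for the spread only, and on simulated counts this recovered 70% of 2-fold and 98% of 4-fold changes, with 11 false calls. TPM values were printed, and were tested only in the limma 3.58.1 alternative, in the permutation test of single promoters and in Dixon's test for a Mid library far from the others. For single promoters, the exact permutation test of 2 against 5 mice cannot give a two-sided p below 0.0952. Promoter use was tested with diffSpliceDGE. Depth was given as total tags, and tags of low promoters limit precision by counting error.

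Named were the 12 annotated genes with the largest change in each direction among called promoters with a mean CPM of at least 1 and groups that did not overlap, up to 5 called members of each list with the smallest p, the regulators that the study discusses (such as *Atf3*, *Igf1* and the AMPK subunits), the 8 promoters with the largest spread among the Mid at a Mid mean CPM of at least 5, the 5 with the smallest interaction p, and genes with 1 promoter up and another down. The other genes, such as those of promoter use, *Map3k6*, *Tinagl1* and the epidermal genes, were chosen after their values were seen. The promoters and lists were chosen with earlier results of these data known. The alternatives were other normalizations, filters, tools (DESeq2 1.42.0, limma), sets of libraries and the lane. Motifs were searched in RefSeq sequences of GRCm38.p6. A few genes that this rule names are not reported here.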

Additional observations from a re-analysis of the deposited data

Results flagged for a closer look

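Of 153 values, 22 had 1 of the 5 Mid libraries far from the others by Dixon's test at its 95% critical value of 0.71, which chance does for about 1 group in 20. That share is no yardstick here, since 8 of the promoters were taken for having the largest spread among the Mid and the 2 sums were formed after Mid 11 had been seen. Mid 11 was far above the other Mid for *Krt10* (312 TPM), *Krt1* (146), *Lor* (76.2), *Afp* (46.8), *BC100530* (43.1), *Flg* (41.8), *Asprv1* (31.2) and *Stfa3* (29.3), for the sum of the epidermal genes (743 TPM) and for the sum of the 13 clusters without a tag in experiment #1 and lane 4 (500 TPM). It was also the highest Mid for *Angptl8*, at 0.499 TPM.

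Mid 10 was the highest Mid for the down-regulated promoters of *Tfrc* (67.7 TPM), *Fasn* (45), *Itgb6* (9.63) and *Acaca* (4.04), and the lowest for the up-regulated promoter of *Gclm* (11.4). Mid 9 stood apart for *Pde4d* (133 TPM), *Btg2* (111) and the second promoter of *Atf3* (33.9), where it was the highest, and for *Ucp2* (8.20) and *Myod1* (9.94). In Mid 12, *Chac1* was at 20.5 TPM.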

How the results depend on the processing

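All 573 and 480 promoters kept their direction under each of the 21 alternatives. Every Mid lay outside the range of the Pre in 571 and 478 of them. Leaving out libraries could thus hardly turn the direction, and this is no separate support. Of 128 named and called promoters, 42 stayed past the threshold under every alternative, and 93 under those that kept all 7 Pre and Mid libraries. Leaving out 1 library gave between 148 and 747 up-regulated and between 106 and 573 down-regulated promoters. The counts were 318 and 237 in lane 3 alone, and 263 and 180 in lane 3 without Mid 11, a choice made after seeing the data. Both have fewer libraries. With lane as a term over the 10 libraries of experiment #2, the counts were 412 and 352, of which 397 and 335 were among the 573 and 480. With other tools the counts were 785 and 596 (DESeq2) and 661 and 543 (likelihood ratio test), and without TMM 462 and 502. The interaction with experiment had 0 calls, 7 with DESeq2, 2 with the likelihood ratio test, and between 0 and 1 when a library was left out. The direction turned for *Prkab1*, at 0.15 without Pre 6 and at -0.25 without Pre 5, and for the downstream promoter of *Ppargc1a*, at 0.01 with thinned counts, 0.04 in lane 3 without Mid 11, and 0.03, 0.08, 0.05 and 0.06 without Mid 11, Mid 12, Mid 9 and Pre 6 (-0.21 without Mid 10). Neither was called, and the cause was not tested. No paired analysis was possible because the Pre and Mid libraries of this batch share no replicate number. With 2 Pre mice, the spread of the Pre is the least well known quantity.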

Other observations

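Genes of cell division rose in 1 of 7 measured (*Rrm2*, 1.84 ± 0.49), and their median log2 fold change of 1.33 was 0.15 without Mid 11. *Rrm2* did not pass in lane 3 alone. Of the CLK kinases and SR splicing factors, *Clk1* (0.61 ± 0.16) and *Clk4* (0.71 ± 0.17) rose among 16 measured, and 1 of the list did in lane 3 alone. Of 17 genes of branched-chain amino acid breakdown, *Bckdha* (0.53 ± 0.13) and *Dbt* (0.68 ± 0.18) rose, and of 11 amino acid transporters *Slc3a2* (0.81 ± 0.16) and *Slc43a1* (1.26 ± 0.30) did. In lane 3 alone 0 of either list passed, and *Bckdha*, *Dbt*, *Slc3a2* and *Slc43a1* also lost the call without either Pre. None of 7 interferon response genes passed. Of the 1201 clusters without an annotated gene, 68 (5.66%) were up-regulated and 32 (2.66%) down-regulated.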
